A study of Oryza sativa with 6 samples.

Results

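Carbohydrate metabolism genes of the rice leaf were compared between the *Dap1* mutant and wild type (WT). Members were the genes of the deposited table that its annotation placed in the KEGG class carbohydrate metabolism or under the GO process carbohydrate metabolic process. The inositol phosphate synthase gene *OsINO1* was set aside, as were genes also filed under secondary metabolites or terpenoids and genes with 3 counts or fewer in every library of a group. This gave 36 genes of the 925 listed, 27 of them by KEGG and 15 by GO, with 6 carrying both. By their identifiers they lay on 11 chromosomes. The table lists only genes that the authors had called different between *Dap1* and WT on these same libraries, so that contrast, together with the counts themselves, chose the members. All differences between *Dap1* and WT are therefore given as a description, without a test.

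The *Dap1* plants carried a T-DNA upstream of *OsWUS* in the *japonica* variety Zhonghua11 (ZH11), a dominant insertion for which the study found no homozygous plants. ZH11 without the insertion was the WT. Leaves were collected at the booting stage from field-grown plants, with 3 *Dap1* and 3 WT libraries. *Dap1* is a single insertion line, and plant age and the pooling of plants per library are not given in the sources used here.

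*OsWUS* (*Os04g0663600*) was counted 77, 100 and 105 times in *Dap1* and 0 times in each WT library, so its direction goes with the group labels. The labels do not say that WT leaves lack its RNA. By quantitative PCR, the paper reports it as relatively higher in WT leaves than in the other tissues it measured. Counts on the listed genes ranged from 601642 to 666483 in *Dap1* and from 244181 to 314019 in WT, and full library depth is unknown. Relative library sizes, taken from the ratio of count to FPKM, a count divided by transcript length and sequencing depth, lay between 0.949 and 1.05 in *Dap1* and between 0.860 and 1.10 in WT. Leaf identity could not be checked, because no gene described as a Rubisco small subunit or a chlorophyll-binding protein is among the listed genes. No glutelin, prolamin or globulin of the seed is listed either. Genes annotated with response to heat stood apart in these libraries: 26 of the 27 listed were higher in *Dap1*, with a median log2 fold change of 4.49. Among the carbohydrate genes, *PGK* and *CATA1* carry this annotation, and the part of growing conditions in the results below was not tested. The mutant headed later, so the day of sampling and the genotype cannot be told apart. In whole leaves, fewer cells of a type and less RNA per cell cannot be told apart either.

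Leaves store part of their fixed carbon as starch by day and export another part as sucrose. Starch is broken down at night by amylases, and hexoses enter glycolysis and the pentose phosphate pathway. Oligosaccharides of the raffinose family are built from sucrose and galactinol, and are known to accumulate under heat, cold and drought. Ascorbate, made from sugar precursors, removes hydrogen peroxide through ascorbate peroxidase and is recycled by dehydroascorbate reductase. Nucleotide sugars feed the polymers of the cell wall, which are in turn cut by glucanases and pectin hydrolases.

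Of the 36 genes, 19 were higher and 17 lower in *Dap1*. A gene was called where edgeR gave an adjusted p-value below 0.05 and a log2 fold change beyond 1 in size. By this, 35 were called, where 98.6% of all listed genes were. There were 19 called higher and 16 called lower, where the shares over all listed genes were 56.9% and 41.7%. The gene not called was *OsUAP2*, with a log2 fold change of -0.99 (SE 0.13). After scaling by the ratio of count to FPKM, each of the 36 genes had all *Dap1* libraries on 1 side of all WT libraries. This held for 99.0% of all listed genes and was not examined under other scalings. These shares follow from how the table was made.

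How far the higher and the lower genes moved depended on the library scaling. With sizes from the ratio of count to FPKM, log2 fold changes of the 19 higher genes ran between 1.15 (*OsNPC2*) and 3.48 (*OsAPx3*), with a median of 2.03, beside 1.84 for all listed genes that were higher. Those of the 17 lower genes had a median of -1.13, beside -1.38 for all listed genes that were lower. Of the 19 higher genes, 10 (52.6%) exceeded a log2 fold change of 2, beside 238 of 532 (44.7%) of all higher genes. *ARK1* was the 1 lower gene of 17 (5.88%) beyond -2, beside 80 of 393 (20.4%) of all lower genes. Among the lower genes, 11 of 17 (64.7%) lay above -1.2, close to the limit at which genes entered the table. Of all lower genes, 127 of 393 (32.3%) did. All listed genes include those with 3 counts or fewer in every library of a group. Such genes were left out of the 36 and can have large fold changes, so these shares and the medians above compare unlike lists. The median log2 fold change over the 36 genes was 1.18, and over all listed genes 1.15. Both follow from the split of directions and the limit of entry to the table, and neither is a typical change. The contrasts between higher and lower genes did not hold under scalings taken from the listed genes alone. Such scalings assume that most genes do not change, whereas every listed gene had been selected as different. With TMM factors the medians were 1.57 for the higher and -1.58 for the lower genes, and with DESeq2's size factors 1.17 and -1.98. Of the higher genes, 7 with TMM and 5 with DESeq2's size factors exceeded 2, and of the lower genes 3 and 8 lay beyond -2. No lower gene (0 of 17) was above -1.2 under either.

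**Figure D1:**
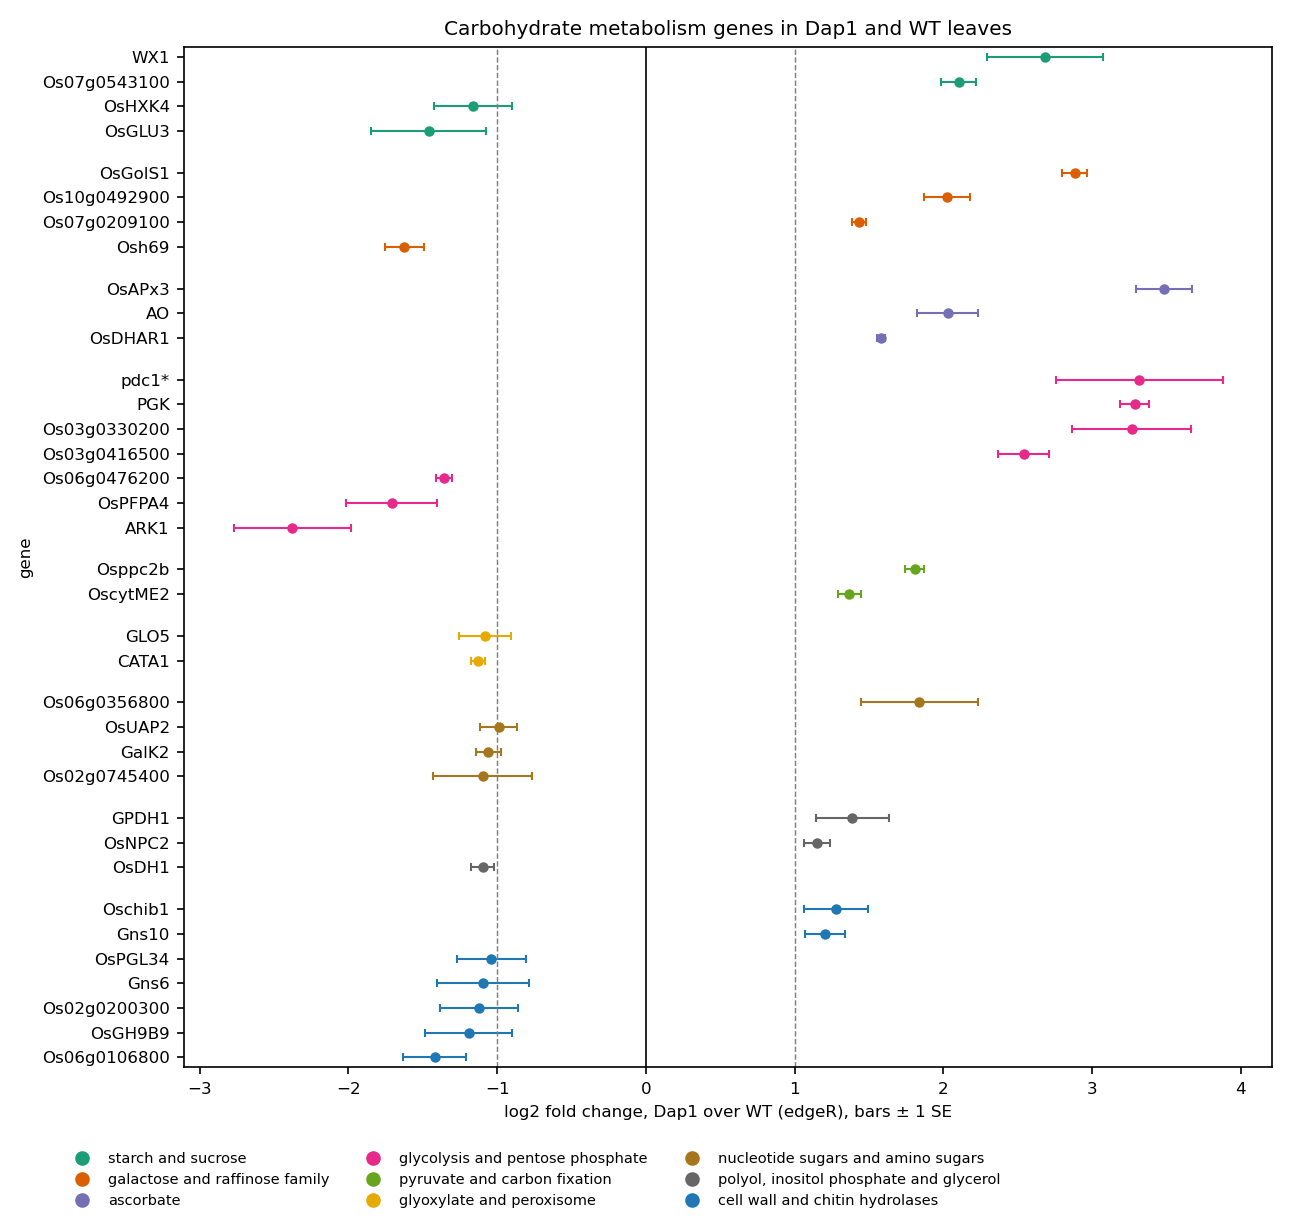
Log2 fold change of each of the 36 genes, *Dap1* over WT, from edgeR (x axis, bars ± 1 standard error), with genes down the page grouped and coloured by pathway and dashed lines at -1 and 1. Ascorbate and pyruvate genes all lie to the right of 0 and both genes of glyoxylate metabolism to the left, and most lower genes sit near -1 under this scaling, whereas *OsAPx3* lies at 3.48.

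By KEGG pathway, each gene being counted in every pathway it belongs to, all 3 genes of ascorbate metabolism and both genes of pyruvate metabolism were higher in *Dap1*. The 3 genes of fructose and mannose metabolism, the 2 of glyoxylate metabolism and the 2 of pentose and glucuronate interconversions were lower. Mixed directions were found for glycolysis (3 higher, 3 lower), galactose metabolism (3 higher, 2 lower), starch and sucrose metabolism (2 higher, 2 lower), the pentose phosphate pathway (1 higher, 1 lower) and amino sugar and nucleotide sugar metabolism (1 higher, 4 lower). The hexokinase *OsHXK4* alone stood in 5 of these pathways, and 9 genes belonged by their GO term only.

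Levels between genes, compared as FPKM, spanned 0.200 to 660 for the group means in *Dap1* and 0.0467 to 221 in WT. *OsDHAR1* was the most abundant in every library and made up 68.9% ± 0.370 (SD, n = 3) of the summed FPKM of the 36 genes in *Dap1* and 50.9% ± 0.515 (SD, n = 3) in WT. Without it the sum was 297 ± 1.37 FPKM in *Dap1* and 213 ± 5.41 FPKM in WT (SD, n = 3 each). The next ranks changed between the groups. After *OsDHAR1*, the most abundant genes in the *Dap1* libraries were *Os07g0209100*, *OsGolS1*, *PGK* and *CATA1*. In WT they were *CATA1*, *Os06g0476200* and *OsDH1*. Genes that were higher in *Dap1* had a median FPKM of 13.3 in *Dap1* and 2.12 in WT, and those that were lower 1.07 in *Dap1* and 2.87 in WT.

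**Figure D2:**
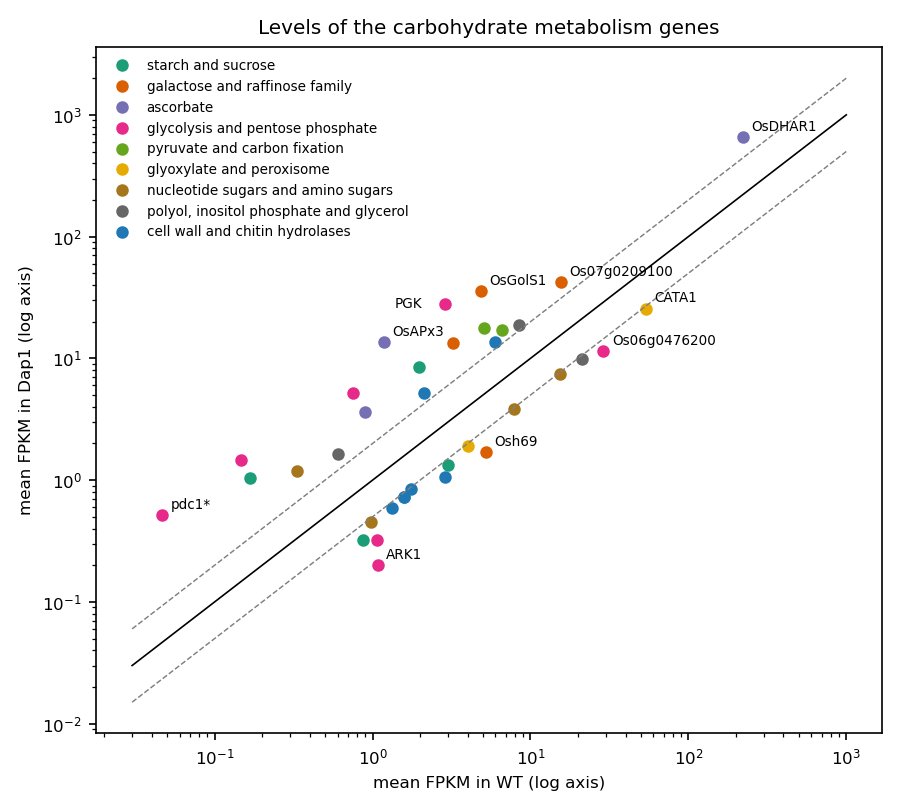
Mean FPKM of each of the 36 genes in *Dap1* (y axis, log scale) against WT (x axis, log scale), n = 3 libraries each, coloured by pathway, with a solid line at equal levels and dashed lines at a 2-fold difference. *OsDHAR1* lies at the top of both axes, at 660 FPKM in *Dap1* and 221 FPKM in WT, and many lower genes fall along the lower dashed line.

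The raffinose family genes moved in both directions, with 3 higher and 1 lower. *OsGolS1* (*Os03g0316200*) encodes galactinol synthase, which makes the galactosyl donor for these oligosaccharides. Its FPKM was 35.0, 36.6 and 35.6 in *Dap1*, against 5.18, 5.28 and 4.10 in WT. Every *Dap1* library was thus far above every WT library, and the log2 fold change was 2.88 (SE 0.084), or 7.37-fold. *Os07g0209100*, described as similar to seed imbibition protein, had 43.8, 43.0 and 40.0 FPKM in *Dap1*, against 15.4, 15.4 and 16.2 FPKM in WT. This is a log2 fold change of 1.43 (SE 0.046), which fell inside the limit of 1 with TMM (0.98) and with DESeq2's size factors (0.58). It shares its KEGG orthology entry, that of raffinose synthase, with *Osh69* (*Os08g0495800*), and these are the only members with an entry in common. The family holds both enzymes that build raffinose and alkaline alpha-galactosidases that split it, and *Osh69* is known in rice as an alkaline alpha-galactosidase of senescing leaves.

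*Osh69* went the other way, with 1.88, 1.71 and 1.48 FPKM in *Dap1* and 5.22, 5.52 and 4.87 FPKM in WT, a log2 fold change of -1.63 (SE 0.13). The alpha-galactosidase gene *Os10g0492900*, whose product removes terminal galactose, had 11.6, 14.4 and 13.8 FPKM in *Dap1*, against 4.05, 2.67 and 2.93 FPKM in WT. Its log2 fold change was 2.03 (SE 0.16). Summed over the 4 genes, FPKM was 92.9 ± 2.54 in *Dap1* and 28.9 ± 0.882 in WT (SD, n = 3 each). A ratio of 2 genes within a library does not depend on how libraries are scaled. The pairs were chosen with the values known, so a ratio of a higher to a lower gene differs between groups by that choice. *Os07g0209100* was 23.3, 25.1 and 27.0 times *Osh69* in *Dap1*, against 2.94, 2.78 and 3.32 times in WT. *OsGolS1* was 21.3 ± 2.70 times *Osh69* in *Dap1* and near its level in WT, at 0.930 ± 0.0786 times (SD, n = 3 each).

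All 3 genes of ascorbate metabolism were higher in *Dap1*. *OsDHAR1* (*Os05g0116100*), the dehydroascorbate reductase that regenerates ascorbate with glutathione, had 655, 652 and 673 FPKM in *Dap1* and 223, 219 and 220 FPKM in WT. With counts between 3712 and 13961 per library it was also the most precisely measured, at a log2 fold change of 1.58 (SE 0.024), or 0.73 with DESeq2's size factors, where it was not called. *OsAPx3* (*Os04g0223300*), described as similar to a peroxisome type ascorbate peroxidase, had 13.3, 12.8 and 14.9 FPKM in *Dap1*, against 1.64, 0.650 and 1.25 FPKM in WT. This was an 11.2-fold difference (log2 fold change 3.48, SE 0.19), the highest of the 36 with all libraries in edgeR. It did not keep that rank throughout: without WT replicate 1, *Os05g0469600* (4.15) and *Os03g0330200* (4.04) exceeded it (3.81), without WT replicate 2, *WX1* (3.27) and *Os03g0330200* (3.26) did (3.23), and with limma on log2(FPKM + 1), *PGK* (2.92) did (2.77). The WT value rested on 36, 11 and 25 counts, and leaving out each library in turn gave log2 fold changes between 3.23 and 3.81. *AO* (*Os06g0567900*) encodes ascorbate oxidase, which oxidises ascorbate in the apoplast. It had 127, 168 and 161 counts in *Dap1* and 31, 25 and 53 counts in WT, a log2 fold change of 2.03 (SE 0.20). *OsDHAR1* and *OsAPx3* are also filed under glutathione metabolism.

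Both genes of glyoxylate metabolism, which are also filed under the peroxisome, were lower. *CATA1* (*Os02g0115700*), a catalase that breaks down hydrogen peroxide, had 26.8, 23.6 and 26.2 FPKM in *Dap1* and 56.2, 50.01 and 54.8 FPKM in WT. *GLO5* (*Os07g0616500*), similar to the glycolate oxidase that forms hydrogen peroxide in photorespiration, had 1.89, 2.07 and 1.77 FPKM in *Dap1*, against 4.26, 3.73 and 4.12 FPKM in WT. Their log2 fold changes were close, -1.13 (SE 0.048) and -1.08 (SE 0.18). The ratio of *CATA1* to *GLO5* was accordingly alike, 13.5 ± 1.81 in *Dap1* and 13.3 ± 0.108 in WT (SD, n = 3 each). *OsAPx3* to *CATA1*, in contrast, was 0.535 ± 0.0355 in *Dap1* and 0.0217 ± 0.00815 in WT (SD, n = 3 each). *OsAPx3* and *GLO5* share the GO component peroxisome but had opposite directions.

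**Figure D3:**
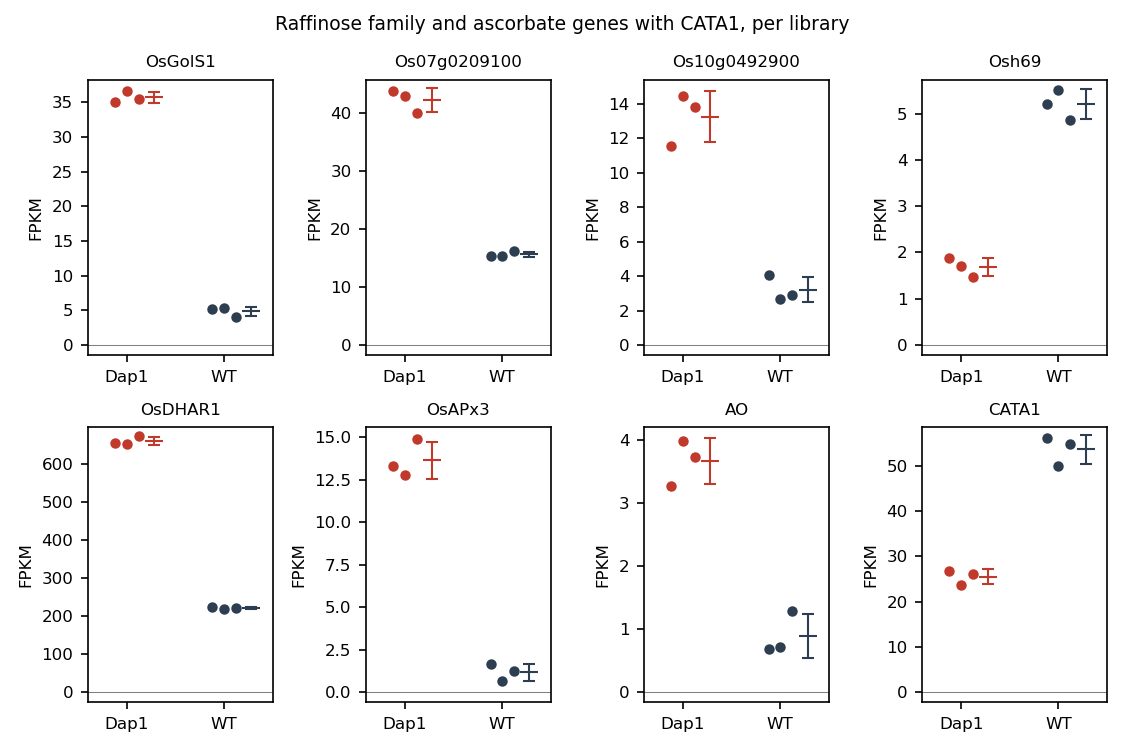
FPKM (y axis, linear) in each of 3 *Dap1* and 3 WT libraries (points), with mean ± SD beside them, for the raffinose family genes (top row), the ascorbate genes and *CATA1* (bottom row). The *Dap1* points lie above the WT points in 6 panels and below them for *Osh69* and *CATA1*.

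**Figure D4:**
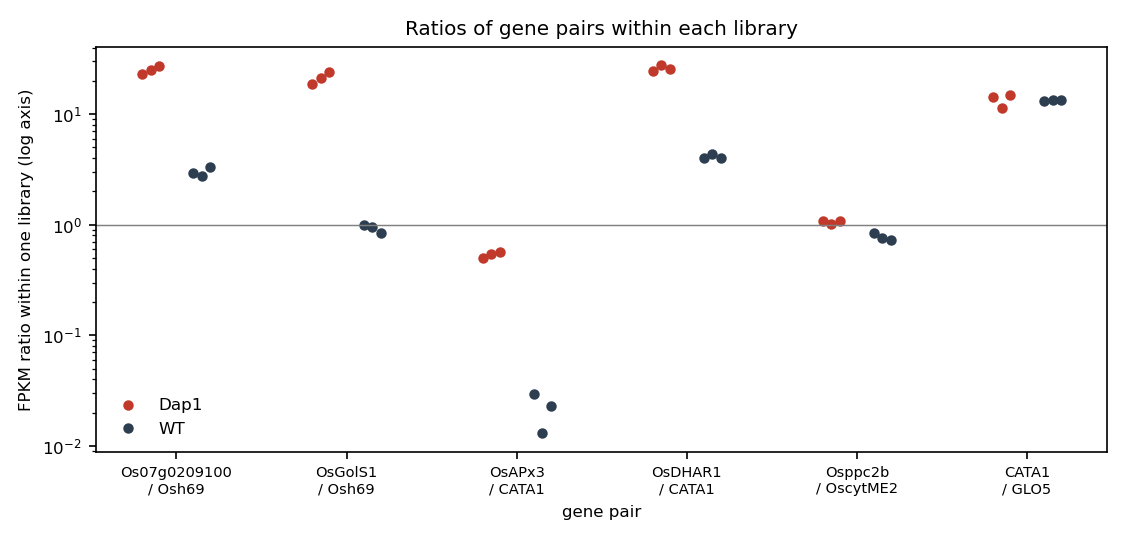
Ratio of the FPKM of paired genes within each library (y axis, log scale) for 6 pairs (x axis), with *Dap1* libraries left of WT libraries. *Os07g0209100* to *Osh69* is 23.3 to 27.0 in *Dap1* and 2.78 to 3.32 in WT, whereas the points of *CATA1* to *GLO5* overlap.

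In glycolysis, 2 enzymes of its later steps and the pyruvate decarboxylase were higher, and the 3 remaining genes filed there were lower. *PGK* (*Os06g0668200*), similar to cytosolic phosphoglycerate kinase, had 28.2, 26.7 and 29.4 FPKM in *Dap1*, against 2.62, 2.57 and 3.42 FPKM in WT, a log2 fold change of 3.29 (SE 0.097). *Os03g0330200*, a cofactor-independent phosphoglycerate mutase acting in the following step, had 51, 43 and 46 counts in *Dap1* and 9, 4 and 1 counts in WT. *Os05g0469600*, listed with the symbol pdc1 and an asterisk and similar to the pyruvate decarboxylase that opens ethanol fermentation, had 21, 22 and 21 counts in *Dap1* and 4, 0 and 2 counts in WT. Their log2 fold changes were 3.27 (SE 0.40) and 3.32 (SE 0.56). Both rest on few WT counts: without WT replicate 1 they became 4.04 and 4.15.

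All 3 lower genes were scarce, with at most 72 counts in a library. *OsPFPA4* (*Os09g0298100*) carries the KEGG entry of the pyrophosphate-dependent phosphofructokinase, which interconverts the fructose phosphates, and had 14, 11 and 11 counts in *Dap1*, against 50, 30 and 37 counts in WT. *ARK1* (*Os01g0847600*), an aldo-keto reductase that detoxifies reactive aldehydes, had 4, 7 and 5 counts in *Dap1* and 33, 24 and 26 counts in WT, a log2 fold change of -2.38 (SE 0.39). The log2 fold change of *OsPFPA4* was -1.71 (SE 0.31), and that of *OsHXK4* (*Os07g0197100*), similar to the chloroplastic hexokinase that phosphorylates glucose, was -1.16 (SE 0.26). *OsHXK4* had 24, 17 and 34 counts in *Dap1* and 72, 40 and 54 counts in WT, and without *Dap1* replicate 2 its log2 fold change was -0.94, inside the limit of 1.

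Next to glycolysis, *Os03g0416500*, with a phosphogluconolactonase domain of the oxidative pentose phosphate pathway, had 5.08, 5.17 and 5.42 FPKM in *Dap1* and 0.650, 0.850 and 0.750 FPKM in WT (log2 fold change 2.54, SE 0.17). *Os06g0476200*, similar to phosphoglucomutase, which links glycolysis with starch, carries the GO component chloroplast stroma. This gene was lower and well expressed. It had 11.4, 11.2 and 11.6 FPKM in *Dap1*, against 29.5, 29.1 and 28.4 FPKM in WT, a log2 fold change of -1.36 (SE 0.055).

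Of the starch genes, the beta-amylase gene *Os07g0543100*, whose product releases maltose from starch, had 8.99, 8.31 and 7.98 FPKM in *Dap1*, against 1.92, 1.99 and 1.96 FPKM in WT. The log2 fold change was 2.10 (SE 0.12). *WX1* (*Os06g0133000*), the granule-bound starch synthase that makes amylose mainly in the endosperm, had 49, 38 and 40 counts in *Dap1* leaves and 7, 10 and 2 counts in WT leaves. Its log2 fold change of 2.68 (SE 0.39) lay between 2.25 and 3.27 with each library left out. The beta-amylase gene and the scarce *WX1* were thus both higher, whereas the phosphoglucomutase gene *Os06g0476200* was lower. The remaining gene of this pathway, *OsGLU3* (*Os04g0497200*), is a membrane-bound cellulase-type glucanase with a role in root cellulose synthesis. It had 22, 15 and 3 counts in *Dap1*, against 41, 35 and 33 counts in WT, and *Dap1* replicate 3 decided its value: the log2 fold change was -1.46 (SE 0.39) with all libraries, -0.97 without *Dap1* replicate 3 and -2.07 without *Dap1* replicate 1.

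**Figure D5:**
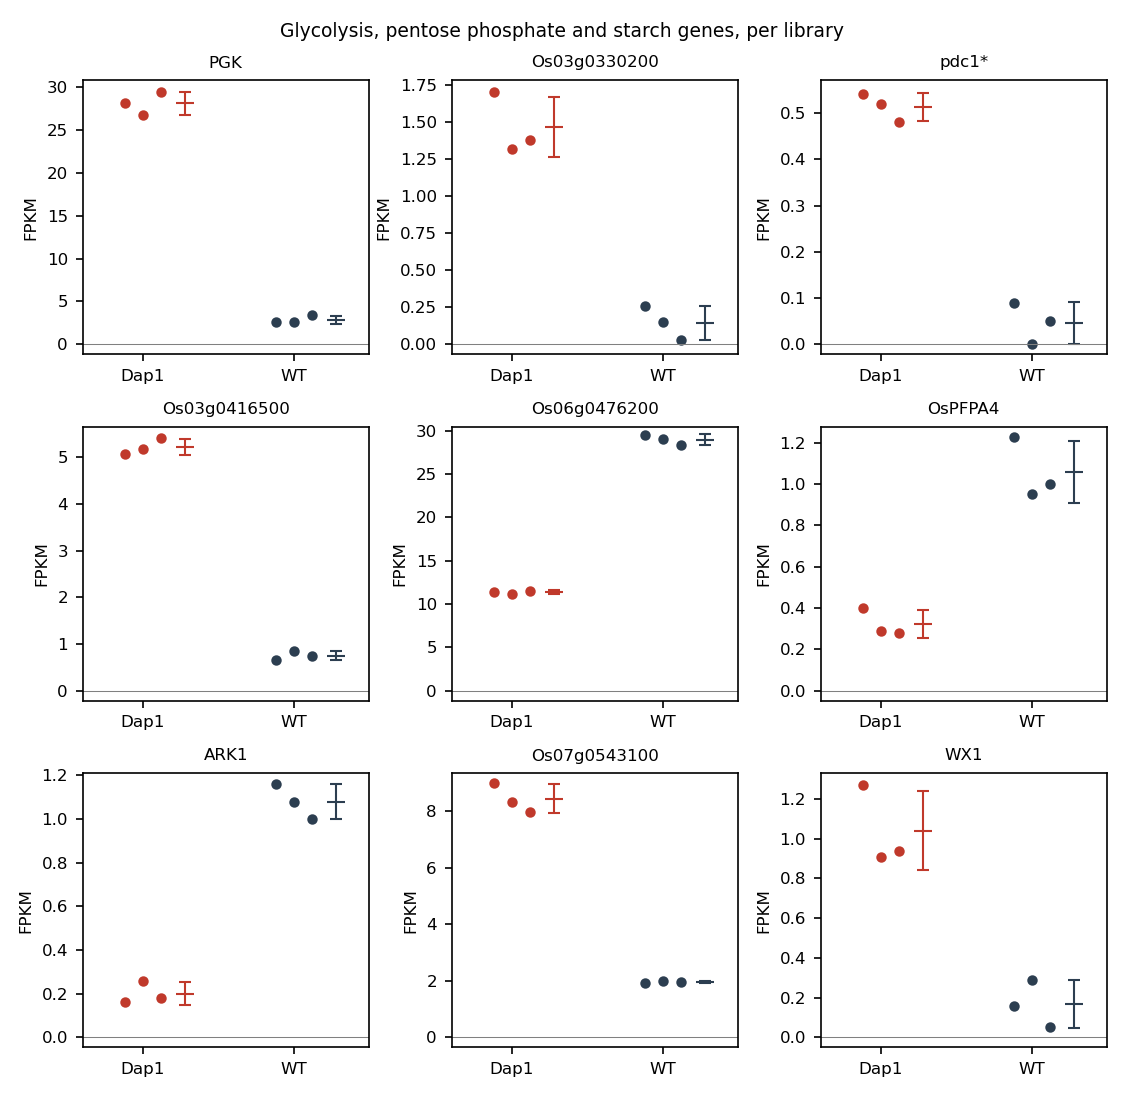
FPKM (y axis, linear) in each of 3 *Dap1* and 3 WT libraries (points), with mean ± SD beside them. Shown are 7 genes of glycolysis and the pentose phosphate pathway and the starch genes *Os07g0543100* and *WX1*. *PGK* reaches 26.7 FPKM or more in every *Dap1* library and at most 3.42 FPKM in WT, while *Os05g0469600* (drawn with its symbol pdc1) and *WX1* stay at low FPKM in both groups.

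Both genes of pyruvate metabolism are also filed under carbon fixation. *Osppc2b* (*Os09g0315700*), of the phosphoenolpyruvate carboxylase family that forms oxaloacetate, had 18.8, 17.2 and 17.6 FPKM in *Dap1* and 4.85, 5.29 and 5.20 FPKM in WT. *OscytME2* (*Os05g0186300*), similar to NADP-malic enzyme, which turns malate into pyruvate, had 17.3, 17.1 and 16.4 FPKM in *Dap1*, against 5.77, 6.94 and 7.08 FPKM in WT. The log2 fold changes were 1.81 (SE 0.065) and 1.37 (SE 0.078), and *Osppc2b* to *OscytME2* was 1.05 ± 0.0429 in *Dap1* and 0.779 ± 0.0550 in WT (SD, n = 3 each). Both lost their call with DESeq2's size factors, at 0.95 and 0.52, and *OscytME2* also with TMM, at 0.91.

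Genes of nucleotide sugar metabolism were mostly lower. With sizes from the ratio of count to FPKM, this was by about the smallest change that the table admits. With TMM, *GalK2*, *OsUAP2* and *Os02g0745400* stood at -1.51, -1.45 and -1.55, and with DESeq2's size factors at -1.91, -1.84 and -1.95. *GalK2* (*Os04g0608100*), annotated with carbohydrate phosphorylation, had 7.23, 8.07 and 7.02 FPKM in *Dap1*, against 16.3, 14.8 and 15.1 FPKM in WT (log2 fold change -1.06, SE 0.084). *OsUAP2* (*Os04g0613700*), similar to the pyrophosphorylase that makes UDP-N-acetylglucosamine, had 4.26, 4.07 and 3.21 FPKM in *Dap1*, against 8.82, 6.31 and 8.40 FPKM in WT. It was inside the limit of 1 with all libraries, but passed it without *Dap1* replicate 1 (-1.04), *Dap1* replicate 2 (-1.02), WT replicate 2 (-1.04) or WT replicate 3 (-1.01). *Os02g0745400*, a glycosyltransferase of the family that includes pectin-building galacturonosyltransferases, had 20, 13 and 12 counts in *Dap1* and 41, 32 and 22 counts in WT. Its highest *Dap1* library almost met its lowest WT library, which was 1.04 times higher after scaling. The log2 fold change of -1.10 (SE 0.33) moved inside the limit without *Dap1* replicates 2 (-0.99) or 3 (-0.93) and without WT replicates 1 (-0.97) or 2 (-0.99). The gene of this pathway that was higher, *Os06g0356800*, is described as a xylanase inhibitor and had 23, 31 and 20 counts in *Dap1*, against 7, 6 and 7 counts in WT (log2 fold change 1.84, SE 0.40, or 0.99 and not called with DESeq2's size factors).

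The 7 hydrolases of the cell wall and of chitin, most of them scarce, are the largest group that entered by GO term only. Here 2 were higher and 5 lower. *Gns10* (*Os01g0713200*), a beta-glucanase, had 11.9, 15.3 and 13.9 FPKM in *Dap1* and 4.65, 7.03 and 6.33 FPKM in WT (log2 fold change 1.21, SE 0.13). *Oschib1* (*Os10g0416500*), similar to a chitinase, had 6.59, 3.69 and 5.22 FPKM in *Dap1*, against 1.99, 2.04 and 2.34 FPKM in WT (log2 fold change 1.28, SE 0.22). Neither was called with TMM (0.75 and 0.82) or with DESeq2's size factors (0.36 and 0.43). The other beta-glucanases of this type, which cut callose and fungal wall glucans, were lower. *Gns6* (*Os01g0940800*) had 17, 19 and 15 counts in *Dap1* and 29, 42 and 35 counts in WT, and *Os02g0200300* had 30, 17 and 27 counts in *Dap1*, against 56, 51 and 51 counts in WT. *Gns10* to *Gns6* was 19.2 ± 3.71 in *Dap1* and 3.89 ± 0.476 in WT (SD, n = 3 each). Reads can be split among such paralogs, so the values of these glucanases are uncertain. The library kit did not mark the strand, so reads from an overlapping antisense gene cannot be told apart.

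The largest decrease of these hydrolases was that of *Os06g0106800*, a pectin-type hydrolase, with 35, 43 and 28 counts in *Dap1* and 90, 80 and 108 counts in WT (log2 fold change -1.42, SE 0.21). *OsPGL34* (*Os11g0658800*), of the pectin lyase fold, and *OsGH9B9* (*Os06g0247900*), similar to a cellulase-type glucanase, had log2 fold changes of -1.04 (SE 0.23) and -1.19 (SE 0.29). Several of these calls turned on a library. *Gns6* lay inside the limit without *Dap1* replicate 3 (-0.99) and without WT replicate 2 (-0.85), *OsPGL34* without *Dap1* replicate 2 (-0.94) and WT replicate 2 (-0.91), *Os02g0200300* without *Dap1* replicate 2 (-0.90), and *OsGH9B9* without *Dap1* replicate 3 (-0.99). Across pathways, all 4 members with the GO process cell wall organization were lower (*Os06g0106800*, *OsPGL34*, *OsGLU3* and *Os02g0745400*), as were all 3 with carbohydrate phosphorylation (*GalK2*, *OsPFPA4* and *OsHXK4*). The 2 members with the GO component plant-type cell wall (*Os10g0492900* and *AO*) were instead higher. Of the 3 with the wider process phosphorylation, 1 was higher and 2 were lower. These GO terms were looked up after the values were seen, and their directions over all listed genes were not computed.

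The last 3 genes belong to polyol, inositol phosphate and glycerol metabolism. *OsNPC2* (*Os01g0955000*), of the phosphoesterase family and filed under phospholipid and inositol phosphate metabolism, had 17.3, 19.3 and 20.2 FPKM in *Dap1* and 8.53, 7.49 and 9.50 FPKM in WT. *GPDH1* (*Os05g0495700*), similar to glycerol-3-phosphate dehydrogenase, had 65, 65 and 68 counts in *Dap1*, against 24, 17 and 33 counts in WT. *OsDH1* (*Os08g0545200*), a zinc-containing dehydrogenase in fructose and mannose metabolism, had 9.94, 9.45 and 10.2 FPKM in *Dap1*, against 21.1, 21.0 and 21.2 FPKM in WT. Their log2 fold changes were 1.15 (SE 0.085), 1.39 (SE 0.24) and -1.10 (SE 0.077). The calls of *OsNPC2* and *GPDH1* were lost with TMM (0.70 and 0.93) and with DESeq2's size factors (0.30 and 0.54).

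The annotation held 7 further carbohydrate genes that were not members. *OsINO1* had 1106 ± 5.68 FPKM in *Dap1* and 431 ± 4.15 FPKM in WT (SD, n = 3 each), above *OsDHAR1* in both groups. Near the count limit, *Os05g0469600* was just inside, with at most 4 counts in WT, and the pectinesterase gene *OsPME6* just outside, with 17, 4 and 11 counts in *Dap1* and 2, 3 and 0 counts in WT. Against 3 counts per WT library, the *Dap1* mean was 3.51-fold higher for *OsPME6* and 44.4-fold higher for *Os09g0278300*. The latter had 140, 146 and 125 counts in *Dap1*, and 1, 1 and 0 counts in WT. The WT means of the pectinesterase gene *OsPME17* and the trehalose phosphatase gene *OsTPP4* were 2.96 and 2.95 times 3 counts per *Dap1* library. Their WT counts were 13, 4 and 10 for *OsPME17* and 15, 5 and 7 for *OsTPP4*, against at most 1 in a *Dap1* library. These folds leave out the spread of the higher group. For *OsPME6*, the lowest *Dap1* library was only 1.11 times the highest WT library after scaling. *Os12g0178000*, similar to aldehyde dehydrogenase, had 30, 53 and 39 counts in *Dap1* and 87, 69 and 99 counts in WT. *Os9bglu30*, similar to beta-primeverosidase, had 1, 1 and 6 counts in *Dap1*, against 17, 8 and 19 counts in WT. The table lists 4 sugar transporters of the SWEET family, with *OsSWEET15* higher and *OsSWEET2b*, *OsSWEET3a* and *OsSWEET16* lower, while no gene named as a SUT sucrose transporter was listed.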

How the data were processed

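Leaf RNA of 3 *Dap1* and 3 WT samples was sequenced after oligo(dT) enrichment. Fastp served the authors for read filtering and Bowtie 2 for taking out rRNA. Alignment to the Nipponbare genome was by HISAT 2, and StringTie and RSEM followed. Versions, genome build and annotation release are not given in the sources used here. The deposited table gives counts of fragments per gene and FPKM, which the authors obtained from counts by transcript length and mapped fragments. Its columns of the authors' mean FPKM, log2 fold change, p-value and FDR were not used. Replicate numbers came from sample titles. The RefSeq table at hand held 0 of the 36 identifiers. Coordinates, sequences and promoter motifs were therefore left out.

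Relative library sizes were medians of count divided by FPKM over the 258 genes that reached an FPKM of 2 in all 6 libraries. Totals over the listed genes were not used for scaling, since these genes had been selected. Counts of all 925 genes were fitted with edgeR 4.0.16 (glmQLFit, glmQLFTest; R 4.3.3) without a filter or block, and p-values were adjusted by the Benjamini-Hochberg method. SE is the size of the log2 fold change over the square root of F. A floor of 3 counts covers counting error only. Alternatives used DESeq2 1.42.0, limma 3.58.1, other scalings, filters and left-out libraries. Members, groups and lists were chosen with earlier results of these data known. All members are named. Per-library values are given for the largest rise, the largest fall and the most abundant gene of each group, and for other members chosen after their values were seen. In all 6 within-group pairs, libraries differed beyond counting error, and how plants were assigned to replicates is not given in the sources used here, so p-values measure the spread between these samples. Plots used Python 3.11.15 and matplotlib 3.10.9.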

Additional observations from a re-analysis of the deposited data

How the results depend on the processing

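The split of calls between directions depended on library scaling. TMM and DESeq2's size factors assume that most genes do not change. They were computed here over the listed genes alone, which had all been selected as different. The median log2 fold change of all genes shifted by -0.45 with TMM factors over the listed genes and by -0.85 with DESeq2's size factors, with shifts of -0.45 and -0.85 for the 36 carbohydrate genes. Under both, 19 of the 36 were still higher and 17 lower in *Dap1*, but 13 were called higher and 17 lower with TMM, and 10 higher and 17 lower with DESeq2's size factors, against 19 and 16. Over all listed genes 342 and 251 were called higher, against 526. Called lower were 393 of the 393 lower genes listed under both, against 386. The 9 no longer called with DESeq2's size factors were *OsDHAR1* (0.73), *Os07g0209100* (0.58), *Oschib1* (0.43), *Gns10* (0.36), *Os06g0356800* (0.99), *Osppc2b* (0.95), *GPDH1* (0.54), *OscytME2* (0.52) and *OsNPC2* (0.30), while *OsUAP2* became called (-1.84). With limma on log2(FPKM + 1), a scale that shrinks low values, 14 of the 36 were called higher and 4 lower, and over all genes 276 and 118. When edgeR tested against a log2 fold change of 1, 6 of the 36 were called lower, beside 232 of the 393 lower genes listed. All 19 higher genes were called, beside 407 of the 532 higher genes listed. All of these genes had been selected on these same libraries for a change beyond 1. When libraries were left out 1 at a time, the number called higher was 19 each time and the number called lower lay between 12 and 17. For all genes these ranges were 502 to 515 and 356 to 379. With the replicate number as a block, 19 were called higher and 16 lower, and over all genes 525 and 387. Same-numbered libraries did not deviate together (correlations between -0.0285 and -0.0066). This cannot show whether the plants were sampled or prepared in pairs. The Wald test of DESeq2 and a minimum mean count of 10 changed no call among the 36. At the depth of these libraries, genes with under 10 counts in a group, such as *ARK1* and *Os05g0469600*, have standard errors of 0.39 and 0.56.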
